A study of Mus musculus with 6 samples.

Results

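Macrophages sorted from subcutaneous MC38 tumours that carried Xkr8 KO clone 1 were compared with macrophages from WT tumours, across every gene in the table of counts. The members are the 2 libraries labelled as clone 1 and the 2 labelled as WT, so 4 of the 6 libraries of the series, and 21760 gene symbols, of which 15560 had enough counts to be tested. MC38 is a mouse colon carcinoma line. Each library came from a separate C57BL6 mouse after 16 days of tumour growth, with no further treatment, and total RNA was sequenced after depletion of ribosomal RNA. WT tumours were of wild type MC38 cells, and KO tumours of MC38 cells without Xkr8. The other 2 libraries came from tumours of KO clone 2 and serve here to show where clone 1 stood apart from a second clone of the same genotype. The knockout is in the tumour cells, and the macrophages of all groups belong to the host. Clone 1 is a single cell line, so loss of Xkr8 and other traits of that line cannot be told apart. The ages and sexes of the mice, the markers used for sorting and the meaning of the letter b in the WT label are not stated in the labels.

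Xkr8 encodes a membrane protein that caspases switch on in dying cells, where it moves phosphatidylserine from the inner to the outer leaflet of the plasma membrane. Phosphatidylserine on the surface is an "eat me" signal that macrophages read through receptors such as MERTK and AXL and through bridging proteins. Uptake of dying cells by this route is known as efferocytosis. Tumour macrophages largely descend from blood monocytes, whose inflammatory form carries the surface protein Ly6C. Interferons are cytokines that switch on a broad set of antiviral and antigen-presenting genes in macrophages, with type I interferons made by many cells and interferon-gamma made chiefly by T and NK cells.

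Before any comparison, WT mouse 2 was unlike the other libraries. It held 20038047 estimated reads against 37090034 to 40022755 in the other 5, and 24.6% of them lay in Rn45s, the ribosomal RNA precursor, against 1.46% to 7.12%. Its log2 CPM, the counts scaled to a common library size, correlated with the others at Pearson's r of 0.912 to 0.927, against 0.972 to 0.989 among the other 5. Medians of gene lists are therefore given below for each WT library alone where that moves them clearly, as are several leading genes, with the remaining WT library taken to vary like the other groups. Macrophage markers were high in all 4 libraries, though the purity of the sort was not tested. Fibroblast markers summed to 4345 and 12217 CPM in WT and 2659.5 and 3940.4 CPM in clone 1. The macrophage identity list summed to 15133 and 19525 CPM in WT and 19755 and 17439 CPM in clone 1, and all 20 members were detected. Adgre1, which encodes the macrophage marker F4/80, was at 667 and 528 CPM in WT and 866 and 767 CPM in clone 1. Of that list 1 of 20 members had an unadjusted p under 0.05, Fcgr1, the high-affinity IgG receptor, at 267 and 284 CPM in WT and 483 and 444 CPM in clone 1 which gave an adjusted p of 0.444 and, on the log2 scale, a difference of 0.75 ± 0.21 (SE). Xkr8 itself was at 6.90 and 6.05 CPM in WT and 4.70 and 4.14 CPM in clone 1 in these host cells, which does not check the knockout in the tumour.

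Across all genes, a single one passed the test between clone 1 and WT, Ly6c2, which rose in clone 1. It was 1 of 15560 genes, or 0.00643%, with an adjusted p under 0.05 by edgeR's quasi-likelihood test, and 0 genes (0.0%) passed as lower. At an unadjusted p under 0.05, 661 genes (4.25%) were higher and 443 (2.85%) lower, 7.1% in either direction. DESeq2 on the same counts called 213 genes higher (1.37%) and 58 lower (0.373%). Without WT mouse 2, edgeR called 38 higher (0.236%) and 20 lower (0.124%), without WT mouse 1, where that unlike library is the WT library kept, it called 5535 in all, and without any single KO library of either clone it called 0. The median log2 fold change over all genes was 0.02, and 0.16 with library totals as deposited in place of TMM-scaled ones. With 2 mice a side, a gene that missed the threshold is not shown to be alike in both groups.

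**Figure D1:**
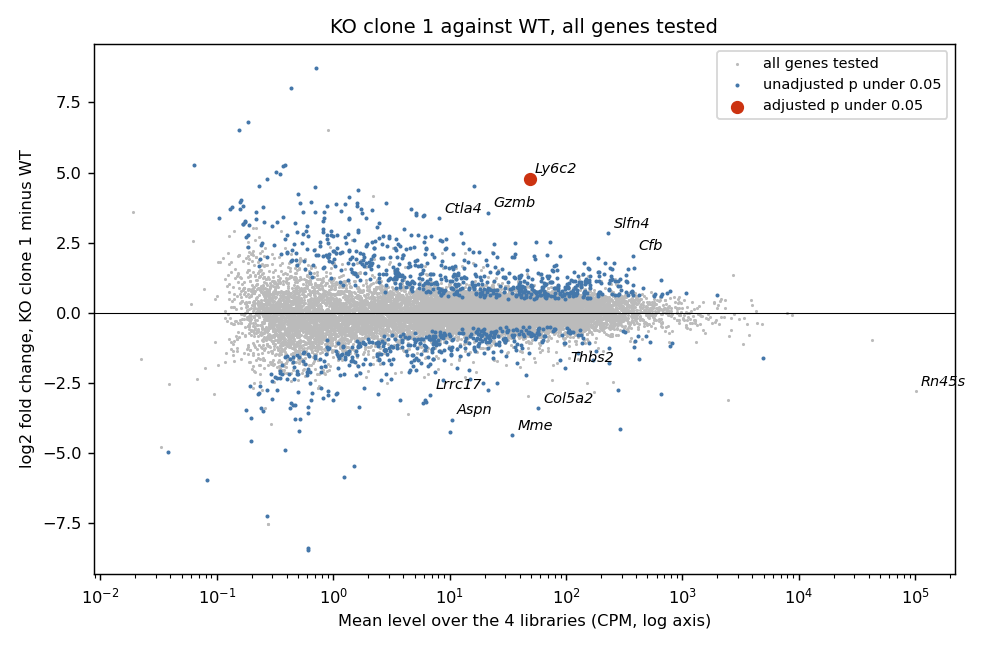
Log2 fold change of clone 1 minus WT (vertical axis) against the mean level over the 4 libraries in CPM (horizontal log axis), 1 point per gene tested, blue where the unadjusted p is under 0.05 and red where the adjusted p is under 0.05. Ly6c2 at 4.77 is the single red point, and the scatter of fold changes widens towards low levels.

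Ly6c2 encodes the Ly6C protein of inflammatory monocytes, anchored to the outer face of the membrane. The WT libraries had 2.72 and 4.27 CPM of it, and there were 87.4 and 100.4 CPM in clone 1. Both clone 1 mice were far above both WT mice, and the groups did not overlap. The difference was 26.9-fold, a log2 fold change of 4.77 ± 0.31 (SE) with an adjusted p of 0.0303 by edgeR and 3.66e-44 by DESeq2. Without WT mouse 2 the log2 fold change was 5.08 with an adjusted p of 0.000883, and without WT mouse 1 it was 4.47 with 0.00139. Ly6c2 missed the threshold when 1 KO library was left out, with an adjusted p of 0.865 and 0.509 without clone 1 mouse 1 and mouse 2, and of 0.0774 and 0.0677 without clone 2 mouse 1 and mouse 2, at log2 fold changes of 4.67 to 4.87. It also missed it in the fit to the 4 compared libraries alone, with a log2 fold change of 4.75 and an adjusted p of 0.0993. Clone 2 was at 85.5 and 88.3 CPM, and the contrast between the clones was -0.11 ± 0.26 with an unadjusted p of 0.673. In bulk RNA, more Ly6c2 per cell and more cells that carry it cannot be told apart.

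Ly6c1 is a near-copy of Ly6c2 on the same chromosome. Their first listed transcripts are 97.6% identical over 822 aligned bases, and how reads shared by the pair were divided is not stated, so either gene alone is uncertain. Ly6c1 was at 16.2 and 12.5 CPM in WT and 10.8 and 16.8 CPM in clone 1, so its groups overlapped, with a log2 fold change of -0.07 ± 0.29 and an adjusted p of 0.937; clone 2 was above both at 40.5 and 40.3 CPM. The sum of the pair was 19.0 and 16.8 CPM in WT and 98.2 and 117 CPM in clone 1, so the separation of the groups does not rest on how the reads were split. That sum differed by a smaller factor than Ly6c2 alone, so the size of its 26.9-fold difference may rest on the split. Ly6c2 lies on GRCm38 at chromosome 15, 75108158 to 75111970, minus strand, and Ly6c1 at chromosome 15, 75044018 to 75048830, minus strand (GENCODE M21). Their promoter windows are shown because Ly6c2 passed and its near-copy did not, a difference between genes that was not itself tested. Each window holds the 250 bases before and 50 after a RefSeq transcription start (GRCm38.p6), printed on the gene's own strand, chr15:75111922-75112221 and chr15:75048788-75049087, both minus.
Ly6c2: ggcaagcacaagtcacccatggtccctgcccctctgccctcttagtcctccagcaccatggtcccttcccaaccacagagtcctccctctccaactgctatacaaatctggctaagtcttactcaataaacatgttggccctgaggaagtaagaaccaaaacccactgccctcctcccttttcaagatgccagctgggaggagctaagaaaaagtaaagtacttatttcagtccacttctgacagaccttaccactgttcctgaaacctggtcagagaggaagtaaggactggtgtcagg
Ly6c1: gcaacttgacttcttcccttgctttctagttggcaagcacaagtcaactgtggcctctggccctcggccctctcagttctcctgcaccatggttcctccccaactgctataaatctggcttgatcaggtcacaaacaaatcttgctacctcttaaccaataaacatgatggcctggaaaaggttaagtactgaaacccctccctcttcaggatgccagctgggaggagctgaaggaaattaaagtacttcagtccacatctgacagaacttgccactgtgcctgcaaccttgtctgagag
The windows are 78.2% identical over 266 aligned bases, so they differ more than the transcripts do. Neither window holds GAAA, any 2 bases and GAAA (TTTC, any 2 bases and TTTC on the other strand), the core of the interferon-stimulated response element, which says only that these letters are absent from these 300 bases. Ly6i, another member of the Ly6 cluster, was at 0.747 and 1.31 CPM in WT and 9.77 and 11.9 CPM in clone 1, with a log2 fold change of 3.47 ± 0.36 and an adjusted p of 0.0820; without WT mouse 2 the adjusted p was 0.00828.

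Genes were ranked by p among those with a mean of at least 5 CPM, groups that did not overlap and no predicted model. Behind Ly6c2, those with the smallest p for a higher level in clone 1 were of a few kinds, and none of them passed. Lymphocyte genes were Ctla4, an inhibitory receptor of T cells, Klrk1, the activating receptor NKG2D, Cd3g, which encodes CD3 gamma of the T cell receptor, Cd2, an adhesion receptor, and Gimap4, a GTPase of lymphocytes. Genes that interferons induce were Tgtp1, a GTPase, and Slfn1 and Slfn4 of the Schlafen family. The others were Stra6, a receptor for retinol-binding protein, and Spon1, a secreted matrix protein. The log2 fold changes of these 12 genes, Ly6c2 and Ly6i included, were 2.06 to 4.77, with adjusted p of 0.0303 to 0.123. Without WT mouse 2, 11 of the 12 passed and Slfn4 did not, with an adjusted p of 0.0534. Clone 2 libraries were above both WT libraries for all 12, and the clones were set against the same WT libraries.

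**Figure D2:**
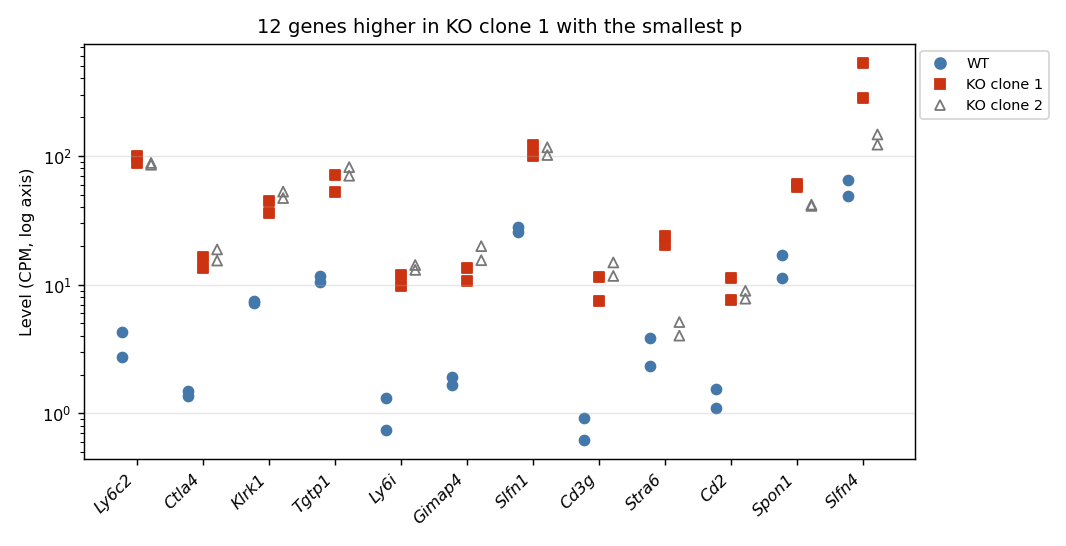
Level in CPM (vertical log axis) of the 12 genes with the smallest p for a higher value in clone 1, 1 point per library, blue circles for WT, red squares for clone 1 and open grey triangles for clone 2. The genes were picked among those with a mean of at least 5 CPM, both clone 1 libraries above both WT libraries and no predicted model. For Stra6, Spon1 and Slfn4 clone 2 lies between the other groups.

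T and NK cell genes were higher as a group, at low levels. Values were above WT on average for 33 of 34 tested members, against 51.2% of all genes, and 24 had an unadjusted p under 0.05, against 4.25%. In 28 members both clone 1 libraries were above both WT libraries, which held for 17.4% of all genes. On the log2 scale the list had a median of 2.22, which was 2.66 when WT mouse 2 was left out and 1.69 when WT mouse 1 was. None passed over all genes by edgeR, while DESeq2 called 19 and the fit without WT mouse 2 called 7. The list was chosen with earlier results of these data known, so its direction is no independent evidence.

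Receptors that restrain T cells were among the clearest members. Ctla4 was at 1.49 and 1.38 CPM in WT and 16.5 and 13.4 CPM in clone 1, a log2 fold change of 3.37 ± 0.28 with an adjusted p of 0.0820. Pdcd1, which encodes PD-1, was at 0.900 and 0.894 CPM in WT and 8.09 and 6.35 CPM in clone 1, with 3.004 ± 0.31 and 0.0820. For both, the clone 1 libraries lay close together and well above the WT libraries. Icos, a costimulatory receptor of activated T cells, was at 0.615 and 1.51 CPM in WT and 14.0 and 7.995 CPM in clone 1, a log2 fold change of 3.47 ± 0.52 with an adjusted p of 0.173. Klrk1 was at 7.25 and 7.43 CPM in WT and 44.8 and 36.3 CPM in clone 1 (2.47 ± 0.23, 0.0820), and Klrc1, another NK cell receptor outside the list, at 1.16 and 0.413 CPM in WT and 11.9 and 7.27 CPM in clone 1. Each of these separated the groups, with the smaller clone 1 value still several times the larger WT value.

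Effector genes of these cells were also above WT in both clone 1 libraries. Gzmb, the cytotoxic protease granzyme B, was at 2.33 and 4.47 CPM in WT and 59.4 and 19.5 CPM in clone 1, so clone 1 mouse 1 was well above mouse 2; its log2 fold change was 3.57 ± 0.61 with an adjusted p of 0.184. Ifng, the gene of interferon-gamma, was at 0.637 and 1.93 CPM in WT and 7.17 and 5.36 CPM in clone 1, a log2 fold change of 2.39 ± 0.63 with an adjusted p of 0.423. Cd3g was at 0.922 and 0.619 CPM in WT and 11.4 and 7.42 CPM in clone 1 (3.55 ± 0.38, adjusted p of 0.0820) and Cd2 at 1.56 and 1.10 CPM in WT and 11.2 and 7.55 CPM in clone 1 (2.78 ± 0.35, 0.123). The sum of Cd3d, Cd3e and Cd3g was 5.01 and 7.15 CPM in WT and 22.1 and 13.9 CPM in clone 1. Its separation of the groups came from Cd3g, and what remained for Cd3d and Cd3e together overlapped between the groups. A negative value was seen for Foxp3, the transcription factor of regulatory T cells, at 0.879 and 2.27 CPM in WT and 1.67 and 0.781 CPM in clone 1, and its groups overlapped. Summed over the whole list, the level was 109.8 and 137 CPM in WT and 479.7 and 277 CPM in clone 1, higher in clone 1 mouse 1 than in mouse 2. Whether T or NK cells passed the sorting gate was not tested.

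Genes that type I interferon induces were higher almost throughout their list. Of 52 tested members 50 were positive, 42 had an unadjusted p under 0.05 (4.25% of all genes) and 45 separated the groups upwards (17.4%). The list's median of 1.02 was 1.02 when WT mouse 2 was left out and 0.96 when WT mouse 1 was, so the size of the difference held with either WT library alone. When WT mouse 2 was left out, all 52 members were positive, against 47.9% of all genes in that fit. None passed singly by edgeR, DESeq2 called 20 and edgeR without WT mouse 2 called 5. In the interferon-gamma list 35 of 36 had positive values (51.2% of all genes), 20 at an unadjusted p under 0.05 as higher (4.25%). The median of 0.97 was 1.12 when WT mouse 2 was left out and 0.87 when WT mouse 1 was. Both interferon lists were chosen with earlier results of these data known. The summed T and NK cell markers given above were also higher in these clone 1 libraries, and the part of those cells in the result was not tested. Ifnb1, the gene of interferon-beta itself, was at 3.71 and 5.78 CPM in WT and 4.80 and 4.11 CPM in clone 1 and did not separate the groups; clone 2 was below both at 0.890 and 0.409 CPM, and the contrast between clones was -2.78 ± 0.48 with an unadjusted p of 0.000836 and an adjusted p of 0.352.

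Slfn1, Slfn4 and Ifit1bl1, the type I list members with the smallest p, and Tgtp1 of the interferon-gamma list, chosen after its values were seen, show how such genes stood. Slfn1 was at 27.8 and 25.8 CPM in WT and 123 and 101 CPM in clone 1, a log2 fold change of 2.06 ± 0.22 with an adjusted p of 0.0820. Ifit1bl1, a relative of the antiviral IFIT proteins, was at 10.3 and 7.36 CPM in WT and 43.8 and 33.7 CPM in clone 1, with 2.13 ± 0.28 and 0.123. In both genes the clone 1 libraries were near each other and above both WT libraries. Tgtp1 was at 11.6 and 10.5 CPM in WT and 71.3 and 52.7 CPM in clone 1 (2.48 ± 0.25, adjusted p of 0.0820); it has a near-copy, Tgtp2, and the sum of the pair was 103 and 72.2 CPM in WT and 314 and 272 CPM in clone 1. Slfn4, a Schlafen gene of myeloid cells, was at 48.8 and 64.7 CPM in WT and 529 and 283 CPM in clone 1, with 2.84 ± 0.37 and 0.123. It was the member of these in which the clone 1 mice differed most from each other.

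Their promoter windows are printed to show which hold the interferon motif, marked in capitals, on the gene's own strand (RefSeq, GRCm38.p6). They are chr11:83116570-83116869 and chr11:83174936-83175235 on the plus strand and chr19:34601919-34602218 and chr11:48992197-48992496 on the minus strand.
Slfn1: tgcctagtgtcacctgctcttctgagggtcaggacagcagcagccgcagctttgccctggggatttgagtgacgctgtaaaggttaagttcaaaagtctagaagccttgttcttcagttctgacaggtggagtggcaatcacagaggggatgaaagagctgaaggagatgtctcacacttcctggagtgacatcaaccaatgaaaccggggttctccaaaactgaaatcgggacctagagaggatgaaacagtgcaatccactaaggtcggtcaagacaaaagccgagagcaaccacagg
Slfn4: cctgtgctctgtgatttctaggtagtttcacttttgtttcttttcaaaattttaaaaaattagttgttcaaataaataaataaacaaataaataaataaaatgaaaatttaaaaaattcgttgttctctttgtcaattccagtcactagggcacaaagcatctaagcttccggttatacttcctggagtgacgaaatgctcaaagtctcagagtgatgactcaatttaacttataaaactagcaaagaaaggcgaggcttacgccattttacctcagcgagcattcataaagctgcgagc
Ifit1bl1: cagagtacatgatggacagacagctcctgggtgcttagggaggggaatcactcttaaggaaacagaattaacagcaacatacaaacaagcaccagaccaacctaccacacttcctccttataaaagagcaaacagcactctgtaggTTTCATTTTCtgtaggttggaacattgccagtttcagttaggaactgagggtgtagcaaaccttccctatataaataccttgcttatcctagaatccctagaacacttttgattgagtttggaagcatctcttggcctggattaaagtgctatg
Tgtp1: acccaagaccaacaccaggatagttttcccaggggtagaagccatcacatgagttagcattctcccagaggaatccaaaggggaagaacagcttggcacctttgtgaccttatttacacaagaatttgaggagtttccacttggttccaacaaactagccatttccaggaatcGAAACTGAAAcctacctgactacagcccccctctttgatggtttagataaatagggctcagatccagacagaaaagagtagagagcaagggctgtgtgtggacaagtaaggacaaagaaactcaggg
Ifit1bl1 and Tgtp1 each hold 1 match to this motif, searched on both strands, and neither Schlafen window holds one. Over all 27025 symbols with a promoter in the table, 1079 (3.99%) hold a match in at least 1 window. The share was 21 of 37 matched members (56.8%) in the type I list, 13 of 23 (56.5%) in the interferon-gamma list and 1 of 23 (4.35%) in the T and NK cell list. The motif is a description of these windows and not a test of any factor.

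Further interferon genes covered regulators, sensors and secreted proteins. Irf7, the factor that amplifies type I interferon production, was at 174 and 209 CPM in WT and 654 and 511 CPM in clone 1, a log2 fold change of 1.60 ± 0.24 with an adjusted p of 0.173 (0.0423 without WT mouse 2). Ifi205, of a family of DNA sensors with near-copies, was at 30.05 and 13.6 CPM in WT and 127 and 123 CPM in clone 1 (2.51 ± 0.38, 0.173, and 0.00828 without WT mouse 2). Upp1, an enzyme of uridine breakdown, was at 10.4 and 9.22 CPM in WT and 28.8 and 35.7 CPM in clone 1, and Ly6a, which encodes Sca-1, at 184 and 159 CPM in WT and 572 and 443 CPM in clone 1. All 4 separated the groups. Isg15, a ubiquitin-like protein, and Bst2, which tethers virus particles, were the members with negative values: Isg15 was at 25.1 and 99.1 CPM in WT and 66.6 and 53.2 CPM in clone 1 and Bst2 at 146 and 532 CPM in WT and 289 and 271 CPM in clone 1, each with its highest value in WT mouse 2, and their groups overlapped. Their small log2 fold changes became positive with library totals as deposited, and without that library they were 1.23 and 0.91. Among sensors of nucleic acids and microbial products 23 of 28 members were positive (51.2% of all genes) and 9 had an unadjusted p under 0.05 (4.25%), with a median of 0.61 that was 0.40 with WT mouse 1 alone and 0.75 with WT mouse 2 alone. Ifih1, the RNA sensor MDA5, was at 102 and 77.4 CPM in WT and 237 and 177 CPM in clone 1, and Zbp1, a sensor of Z-form nucleic acids, at 54.1 and 84.1 CPM in WT and 167 and 123 CPM in clone 1.

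Markers of monocytes, neutrophils and dendritic cells were higher in part. Of the monocyte list 14 of 16 members were positive (51.2% of all genes), 9 at an unadjusted p under 0.05 as higher (4.25%). The median was 1.18, with 1.10 for WT mouse 1 alone and 1.97 for WT mouse 2 alone. Ms4a4c, a membrane protein of monocytes, was at 130.3 and 99.96 CPM in WT and 412 and 384 CPM in clone 1, a log2 fold change of 1.79 ± 0.23 with an adjusted p of 0.123. Plac8 was at 9.71 and 23.3 CPM in WT and 87.1 and 102 CPM in clone 1 (2.53 ± 0.42, 0.180). In both genes the clone 1 libraries lay close together above both WT libraries, and both passed without WT mouse 2, with adjusted p of 0.0238 and 0.00624. Ly6c1 and Fn1, fibronectin, were the members with negative values, and Fn1 was at 2315 and 3995 CPM in WT and 2244 and 1875 CPM in clone 1 with an adjusted p of 0.722.

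The neutrophil list had 9 of 10 tested members positive (51.2% of all genes). The median of 1.78 was 1.60 with WT mouse 1 alone and 3.52 with WT mouse 2 alone. The list's defining markers were near the limit of detection. Ly6g was at 0.0879 and 0 CPM in WT and 0.533 and 0.573 CPM in clone 1 and Retnlg at 0.0879 and 0 CPM in WT and 0.994 and 0.391 CPM in clone 1. Mmp9, a gelatinase that macrophages make too, carried most of the list's summed level and was at 58.7 and 70.2 CPM in WT and 169.6 and 270.2 CPM in clone 1, a log2 fold change of 1.77 ± 0.29 with an adjusted p of 0.180. Cxcr2, a chemokine receptor of neutrophils, had lower values in clone 1, at 11.9 and 12.9 CPM in WT and 8.87 and 7.53 CPM in clone 1. Of the dendritic cell list 13 of 18 members were positive (51.2% of all genes) and 7 had an unadjusted p under 0.05 as higher (4.25%). The median of that list was 0.58, with 0.77 for WT mouse 1 alone and 0.52 for WT mouse 2 alone. The smallest p were those of Ccl22, Dpp4 and Ccr7. Ccl22, a chemokine, was at 0.527 and 0.413 CPM in WT and 4.53 and 4.35 CPM in clone 1 (3.19 ± 0.44, adjusted p of 0.136), Dpp4, a surface peptidase, at 2.75 and 2.55 CPM in WT and 8.36 and 8.91 CPM in clone 1 (1.70 ± 0.26, 0.173), and Ccr7, a homing receptor for lymph nodes, at 0.988 and 0.550 CPM in WT and 4.94 and 3.93 CPM in clone 1 (2.46 ± 0.39, 0.179). The 5 negative members included Clec9a, a marker of cross-presenting dendritic cells, at 2.33 and 5.23 CPM in WT and 4.48 and 2.40 CPM in clone 1, with overlapping groups.

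Chemokine genes were higher in most members. Of the chemokine list 21 of 28 were positive (51.2% of all genes) and 11 had an unadjusted p under 0.05 as higher (4.25%), with a median of 1.11 that was 0.53 with WT mouse 1 alone and 2.09 with WT mouse 2 alone. Cxcl10, a ligand of CXCR3 on T cells, was at 122 and 119 CPM in WT and 273 and 256 CPM in clone 1, a log2 fold change of 1.13 ± 0.21 with an adjusted p of 0.222. Cxcl11 was at 2.79 and 1.86 CPM in WT and 18.2 and 10.1 CPM in clone 1 (2.58 ± 0.39, 0.173). GENCODE M21 lists Cxcl11 as a polymorphic pseudogene, so its RNA does not show a working ligand of that receptor. Cxcl9, another ligand of CXCR3, was at 152 and 141 CPM in WT and 194 and 271 CPM in clone 1 (0.67 ± 0.24, 0.653). All 3 separated the groups and none passed. Ccl7, which draws monocytes, was at 134 and 73.2 CPM in WT and 318 and 244 CPM in clone 1, with 1.44 ± 0.34 and 0.359. Cxcl14 had lower values in clone 1, at 42.3 and 75.8 CPM in WT and 31.4 and 18.2 CPM in clone 1, with -1.25 ± 0.39 and 0.537.

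Both activation lists had more positive members than negative ones, where 51.2% of all genes were positive and 4.25% were higher at an unadjusted p under 0.05. Of the classical list 18 of 22 were positive, 14 at an unadjusted p under 0.05, with a median of 0.78. Of the alternative list 20 of 26 were positive, 10 at an unadjusted p under 0.05, with a median of 1.07 that was 0.75 with WT mouse 1 alone and 2.002 with WT mouse 2 alone. In the classical list, Irg1, which makes the antimicrobial metabolite itaconate, was at 75.5 and 84.4 CPM in WT and 293 and 183 CPM in clone 1 (1.57 ± 0.29, adjusted p of 0.222), and Ptgs2, the prostaglandin synthase COX-2, at 95.8 and 100.3 CPM in WT and 208 and 231 CPM in clone 1 (1.16 ± 0.23, 0.258). Marco, a scavenger receptor, was the list's member with a lower value and a small p, at 1.60 and 1.31 CPM in WT and 0.121 and 0.234 CPM in clone 1 (-3.03 ± 0.80, 0.423). In the alternative list, the lectin Mgl2 was at 4.50 and 3.71 CPM in WT and 14.9 and 20.1 CPM in clone 1 (2.08 ± 0.35, 0.180) and Clec10a, its relative, at 4.44 and 5.50 CPM in WT and 24.6 and 23.7 CPM in clone 1 (2.29 ± 0.59, 0.414). Retnla, a secreted protein induced by IL-4, had the largest fold change there but was at 2.35 and 0 CPM in WT and 15.4 and 46.5 CPM in clone 1, so its level rested on few counts in WT. Arg1, arginase 1, was at 295 and 365 CPM in WT and 579 and 454 CPM in clone 1, with 0.65 ± 0.24 and 0.665. Tnf was at 63.9 and 44.2 CPM in WT and 96.8 and 73.5 CPM in clone 1 and Il10, an anti-inflammatory cytokine, at 7.23 and 2.96 CPM in WT and 9.28 and 12.01 CPM in clone 1, both genes above WT in both clone 1 libraries, with adjusted p of 0.7003 and 0.701.

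Ligands for T cells and receptors for antibody were also higher in most members, and complement genes in fewer. Of the costimulation and checkpoint ligand list 18 of 21 were positive (51.2% of all genes), 10 at an unadjusted p under 0.05 as higher (4.25%; 2.85% as lower), with a median of 0.75. Cd86, a ligand of CD28, was at 68.9 and 43.8 CPM in WT and 126 and 101 CPM in clone 1 (1.01 ± 0.28, adjusted p of 0.450). Cd274, which encodes PD-L1, was at 105 and 274 CPM in WT and 273 and 149 CPM in clone 1, with the highest value in WT mouse 2 and overlapping groups. Fcgr4, an activating IgG receptor, was at 151 and 101 CPM in WT and 417 and 324 CPM in clone 1, a log2 fold change of 1.56 ± 0.28 with an adjusted p of 0.222. The Fc receptor list had 7 of 9 members positive, 3 with an unadjusted p under 0.05 as higher and 1 as lower, with a median of 0.49. Fcrls, a receptor-like gene of macrophages and microglia, had lower values in clone 1, at 361 and 291 CPM in WT and 157 and 119 CPM in clone 1 (-1.24 ± 0.24, 0.258), although it is in that list. Of the complement list 13 of 20 were positive, 6 with an unadjusted p under 0.05 as higher and 1 as lower, with a median of 0.35 that was 0.24 with WT mouse 1 alone and 0.54 with WT mouse 2 alone. Cfb, complement factor B, was at 115 and 181 CPM in WT and 654 and 561 CPM in clone 1, a log2 fold change of 2.04 ± 0.29 with an adjusted p of 0.149, and it passed without WT mouse 2 (0.0128). C4b was at 33.8 and 44.2 CPM in WT and 164 and 88.2 CPM in clone 1 (1.69 ± 0.41, 0.387), and clone 1 mouse 1 was well above mouse 2.

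**Figure D3:**
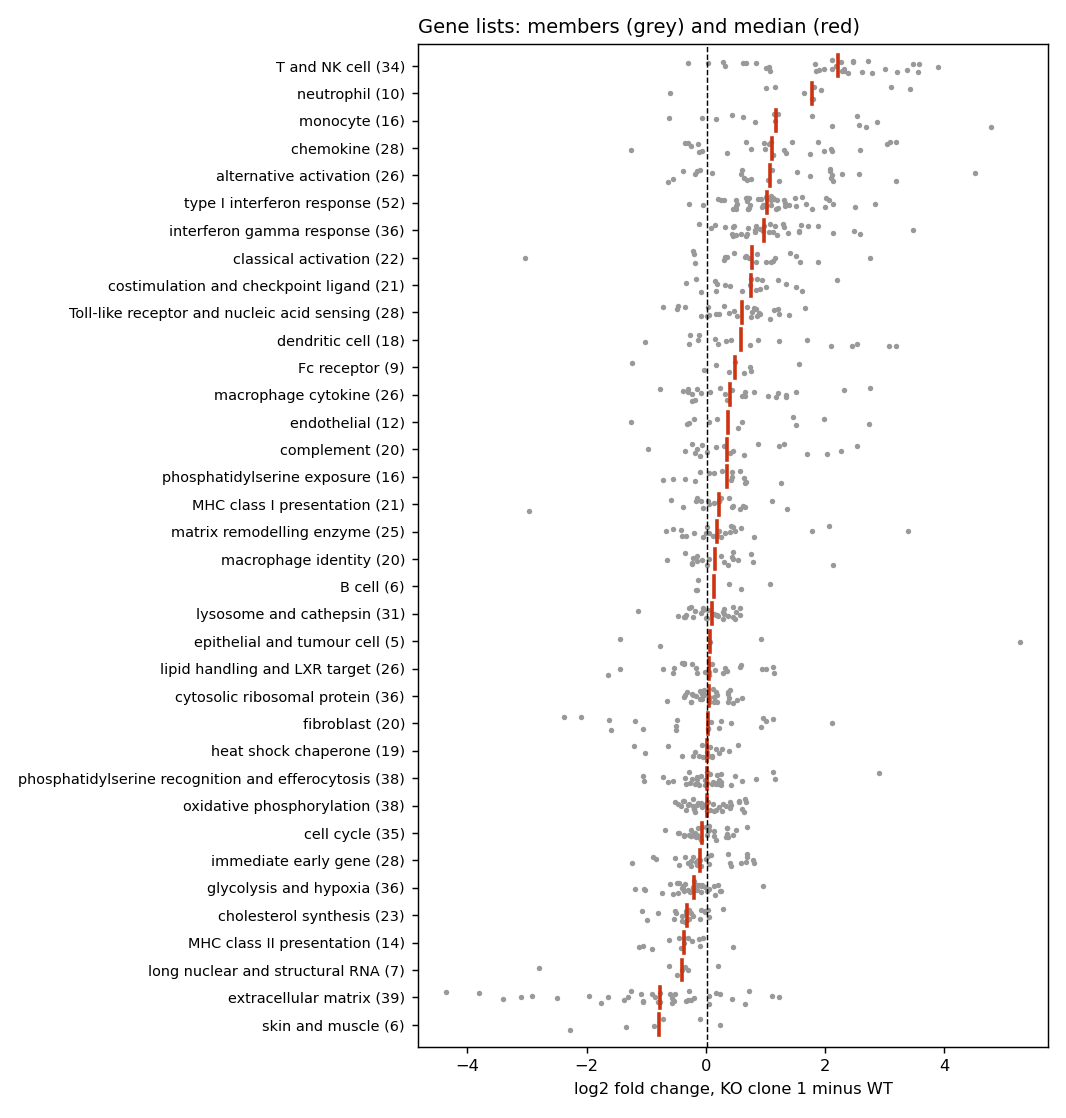
Log2 fold change of clone 1 minus WT for the tested members of each of 36 gene lists (grey points, number tested in brackets) with the list's median (red bar); the dashed line is the median of all genes tested, 0.02. The T and NK cell list has the highest median at 2.22, and the extracellular matrix and the skin and muscle lists have the lowest, -0.76 and -0.79.

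Of the 12 genes with the smallest p for a lower level in clone 1, 6 are in the extracellular matrix list, 5 of them known from earlier results, and none passed. They were Lrrc17, a secreted leucine-rich protein, Thbs2, thrombospondin 2, Mme, the surface peptidase neprilysin, Vipr1, a receptor for vasoactive intestinal peptide, Col11a1, a fibril collagen chain, Aspn, the proteoglycan asporin, Mrc2, a collagen uptake receptor, Matn2, matrilin 2, Nid2, nidogen 2 of basement membranes, Sdpr, the caveolar protein cavin 2, Fcrls, and Dffb, the nuclease that cuts DNA in dying cells. Their log2 fold changes were -4.35 to -1.19, with adjusted p of 0.082 to 0.258, and DESeq2 called all 12, with adjusted p up to 0.0021. Without WT mouse 2, edgeR called 7 of the 12.

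Mme was at 95.6 and 36.5 CPM in WT and 2.23 and 4.27 CPM in clone 1, a log2 fold change of -4.35 ± 0.57 with an adjusted p of 0.123 (-4.91 and 0.00624 without WT mouse 2). Lrrc17 was at 12.9 and 11.2 CPM in WT and 1.79 and 1.41 CPM in clone 1, with -2.91 ± 0.29 and 0.0820. Both clone 1 libraries of these genes were several times below the lower WT library. Thbs2 was at 172 and 142 CPM in WT and 37.9 and 43.1 CPM in clone 1 (-1.96 ± 0.22, adjusted p of 0.0861), and Matn2 at 331 and 387 CPM in WT and 78.3 and 132 CPM in clone 1 (-1.77 ± 0.30, 0.184). Vipr1 was at 8.02 and 8.67 CPM in WT and 1.94 and 2.14 CPM in clone 1, with -2.03 ± 0.28 and 0.136. In Vipr1 the libraries of each group lay close together and the groups were well apart. Dffb was at 13.1 and 11.2 CPM in WT and 4.14 and 5.18 CPM in clone 1 (-1.38 ± 0.28, 0.258).

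Clone 2 stood between clone 1 and WT, or at the level of WT, for most of these genes. For Aspn both clone 2 libraries were above both WT libraries. In 11 of the 12, with Nid2 as the exception, both clone 2 libraries were above both clone 1 libraries, and 10 had an unadjusted p under 0.05 in the contrast between clones, against 1.32% of all genes as higher in clone 2. The genes were picked for low values in clone 1, and the same clone 1 libraries serve in both contrasts, so these counts are not independent of the choice. Aspn was at 30.4 and 8.39 CPM in WT and 1.36 and 1.43 CPM in clone 1 and at 45.3 and 41.8 CPM in clone 2, and the contrast of clone 2 minus clone 1 was 4.96 ± 0.64 with an adjusted p of 0.181. Thbs2 was at 122 and 127 CPM in clone 2, a contrast of 1.62 ± 0.21 with an adjusted p of 0.181. Sdpr was at 17.9 and 16.2 CPM in WT and 6.93 and 7.94 CPM in clone 1 and 17.0 and 17.0 CPM in clone 2, within the range of WT. Nid2 was at 13.4 and 16.1 CPM in WT and 6.03 and 5.83 CPM in clone 1 and 5.42 and 5.77 CPM in clone 2, so both clones were low. No gene passed between the clones by edgeR, where 502 (3.23%) had an unadjusted p under 0.05, 297 of them (1.91%) lower in clone 2, and DESeq2 called 117.

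**Figure D4:**
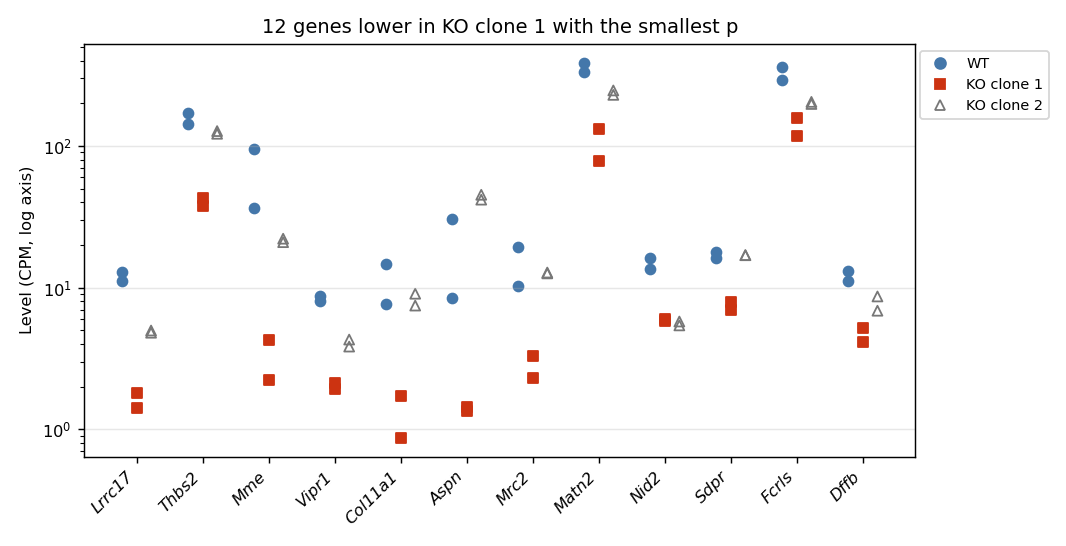
Level in CPM (vertical log axis) of the 12 genes with the smallest p for a lower value in clone 1, 1 point per library, blue circles for WT, red squares for clone 1 and open grey triangles for clone 2. The genes were picked among those with a mean of at least 5 CPM, both clone 1 libraries below both WT libraries and no predicted model. Clone 2 lies above clone 1 in all but Nid2.

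As a list, extracellular matrix genes were lower in clone 1 in most members with both WT libraries, but were about evenly split without WT mouse 2. Of 39 tested members 30 had negative values (48.8% of all genes), 15 of them with an unadjusted p under 0.05 (2.85%), and 14 separated the groups downwards (15.1%). Without WT mouse 2, 20 of 39 members were negative and 19 positive, where 52.1% of all genes were negative in that fit. The list's median of -0.76 was -0.20 when WT mouse 2 was left out and -1.02 when WT mouse 1 was. The list holds 5 genes known from earlier results (Lrrc17, Thbs2, Mme, Col11a1 and Aspn). Without them 25 of 34 were negative and 10 had an unadjusted p under 0.05, with a median of -0.57 that was 0.02 without WT mouse 2. So the median of the remaining genes did not keep its sign without that library, while 9 of them had an unadjusted p under 0.05 as lower (3.61% of all genes in that fit) and 5 as higher (6.72%).

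Single matrix genes showed both patterns. Col5a2, a fibril collagen chain, was at 29.98 and 181 CPM in WT and 15.3 and 4.77 CPM in clone 1, and WT mouse 2 alone gave most of the difference: its log2 fold change of -3.39 ± 0.93 was -1.61 without that library. Col3a1, a major collagen of connective tissue, was at 3634 and 11320.2 CPM in WT and 1837 and 3012 CPM in clone 1, with -1.62 ± 0.55 and -0.61 without WT mouse 2. Fbn1, fibrillin 1 of elastic fibres, was at 515 and 714 CPM in WT and 321 and 381 CPM in clone 1 and at 821 and 792 CPM in clone 2, so clone 1 was the lowest group. Lama4, a laminin chain, was at 4.17 and 10.2 CPM in WT and 2.11 and 2.08 CPM in clone 1, and Ctgf, a matricellular growth factor, at 4.26 and 4.196 CPM in WT and 2.13 and 1.41 CPM in clone 1. Mfap4, a microfibril protein, was at 4.33 and 6.26 CPM in WT and 1.09 and 0.938 CPM in clone 1 and at 0.966 and 1.13 CPM in clone 2, so both clones were low.

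Fibroblast markers went both ways, and Col3a1, which was lower in both clone 1 libraries, made up most of their summed level. Of 20 fibroblast markers 11 were positive (51.2% of all genes), with a median of 0.03 (0.01 without WT mouse 2). An unadjusted p under 0.05 was found for 3 as higher (4.25%) and 4 as lower (2.85%). Thy1, among those higher, is also in the T and NK cell list. It was at 1.69 and 3.71 CPM in WT and 15.3 and 7.45 CPM in clone 1. The groups were separated upwards in 4 (17.4% of all genes) and downwards in 6 (15.1%), and 0 of the 20 were at 0 in all 4 libraries. The list's summed level was 4345 and 12217 CPM in WT and 2659.5 and 3940.4 CPM in clone 1. Col3a1 gave most of it, so the lower sum does not describe the other members. Dcn, decorin, was at 255 and 127 CPM in WT and 286 and 456 CPM in clone 1, above WT in both clone 1 libraries. Fap, a surface protease of activated fibroblasts, was at 1.63 and 1.72 CPM in WT and 0.921 and 0.547 CPM in clone 1, below WT. The part of fibroblast RNA in the lower matrix genes was not tested. Skin and muscle markers, from tissue near a subcutaneous tumour, summed to 23.8 and 11.4 CPM in WT and 3.95 and 9.53 CPM in clone 1, with 5 of 6 tested members negative and a median of -0.79 that was -0.78 with WT mouse 1 alone and -0.49 with WT mouse 2 alone; their part in the result was not tested either. Among matrix-remodelling enzymes, 18 of 25 were positive, with a median of 0.19 that was 0.02 with WT mouse 1 alone and 0.21 with WT mouse 2 alone, where 14 were positive with WT mouse 1 alone. Timp3, an inhibitor of metalloproteinases, was at 1.80 and 1.24 CPM in WT and 7.49 and 5.44 CPM in clone 1 and at 1.70 and 1.08 CPM in clone 2, a contrast between clones of -2.21 ± 0.40 with an adjusted p of 0.387. Plau, the protease urokinase, was at 441 and 353 CPM in WT and 239 and 259.9 CPM in clone 1 and at 159.9 and 183 CPM in clone 2.

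Several genes stood on opposite sides of WT in the clones. Ncam1, a neural cell adhesion molecule, was at 32.0 and 32.8 CPM in WT and 53.1 and 56.0 CPM in clone 1 and at 13.1 and 14.1 CPM in clone 2. The libraries within each group lay close together, with clone 1 above WT and clone 2 below it. Rbfox1, a splicing regulator of neurons and muscle, was at 2.09 and 2.55 CPM in WT and 7.29 and 12.6 CPM in clone 1 and at 0.788 and 0.601 CPM in clone 2. Vipr2, a receptor for the same peptide as Vipr1, was at 15.5 and 8.32 CPM in WT and 35.3 and 39.9 CPM in clone 1 and at 5.42 and 6.32 CPM in clone 2, so it was high in clone 1 where Vipr1 was low. Postn, the matricellular protein periostin, was at 30.001 and 29.4 CPM in WT and 69.1 and 44.1 CPM in clone 1 and at 15.1 and 12.6 CPM in clone 2. Krt14, a keratin of basal epithelium, was low in clone 1 and high in clone 2, at 2.33 and 2.13 CPM in WT and 0.436 and 1.33 CPM in clone 1 and at 13.3 and 16.4 CPM. The contrasts of clone 2 minus clone 1 were -2.002 ± 0.21 for Ncam1, -3.83 ± 0.42 for Rbfox1, -2.68 ± 0.35 for Vipr2, -2.03 ± 0.29 for Postn and 4.08 ± 0.54 for Krt14, each with an adjusted p of 0.181.

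Stra6 and Slfn4 had their highest values in clone 1. Stra6 was at 2.33 and 3.85 CPM in WT and 20.2 and 23.9 CPM in clone 1 and at 4.02 and 5.12 CPM in clone 2. Its log2 fold change to WT was 2.86 ± 0.34 with an adjusted p of 0.123 (0.0128 without WT mouse 2), and the contrast of clone 2 minus clone 1 was -2.27 ± 0.33 with an adjusted p of 0.195. Slfn4 was at 147 and 122 CPM in clone 2, a contrast of -1.59 ± 0.35 with an unadjusted p of 0.00306. Spon1 was at 11.2 and 16.9 CPM in WT and 61.0 and 57.4 CPM in clone 1 and at 41.9 and 40.9 CPM in clone 2, a smaller contrast of -0.52 ± 0.25 with an unadjusted p of 0.0838.

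Receptors and bridges for phosphatidylserine, the signal that Xkr8 exposes, showed no common direction. Of 38 tested genes of recognition and efferocytosis 20 were positive and 18 negative, with a median of 0.02 that was 0.07 with WT mouse 1 alone and -0.08 with WT mouse 2 alone; 4 had an unadjusted p under 0.05 as higher and 2 as lower, against 4.25% and 2.85% of all genes. Mertk, the receptor kinase that binds phosphatidylserine through bridges, was at 70.0 and 75.9 CPM in WT and 102 and 70.8 CPM in clone 1, with a log2 fold change of 0.25 ± 0.25 and an adjusted p of 0.746. Axl, its relative, was at 685 and 1269 CPM in WT and 855 and 777 CPM in clone 1, with -0.26 ± 0.32 and 0.778, and its highest value was in WT mouse 2. Timd4, a direct receptor, was at 0.132 and 0.138 CPM in WT and 0.848 and 1.20 CPM in clone 1, near the limit of detection. Cd47, the "don't eat me" signal, was at 93.4 and 50.1 CPM in WT and 181 and 131 CPM in clone 1 (1.12 ± 0.34, 0.522), and Itgb5, a chain of an integrin that reads bridging proteins, at 428 and 996 CPM in WT and 338 and 349 CPM in clone 1 (-1.05 ± 0.39, 0.665). Among scramblases, flippases and their caspases 11 of 16 were positive, with a median of 0.35 that was 0.19 with WT mouse 1 alone and 0.28 with WT mouse 2 alone, and Xkr8 had a log2 fold change of -0.55 ± 0.27 with an adjusted p of 0.722. The SE of Mertk leaves room for a modest difference in either direction, so these values do not show that the receptors were alike.

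Antigen presentation depended on which WT library was used. MHC class II genes had 13 of 14 members negative and none with an unadjusted p under 0.05, with a median of -0.37 that was 0.27 with WT mouse 1 alone and -0.86 with WT mouse 2 alone. H2-Ab1, a class II chain, was at 708 and 2206 CPM in WT and 994 and 1274 CPM in clone 1 and at 2712 and 2659.8 CPM in clone 2. Cd74, the class II chaperone, was at 1353 and 7721 CPM in WT and 1912 and 2268 CPM in clone 1 and at 4461 and 4353 CPM in clone 2. WT mouse 2 was several times above WT mouse 1 for these genes, and clone 1 lay between the WT mice. The class II median of clone 2 minus clone 1 was 0.77. MHC class I genes had 14 of 21 positive, with a median of 0.22 and of 0.56 with WT mouse 1 alone and -0.10 with WT mouse 2 alone. H2-K1, a classical class I chain, was at 1357 and 1782 CPM in WT and 2531 and 2313 CPM in clone 1 (0.63 ± 0.25, 0.697).

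Other cell types that a sort could hold were checked by their markers. B cell markers summed to 15.04 and 7.98 CPM in WT and 18.9 and 13.8 CPM in clone 1, with 3 of 6 tested members positive. Endothelial markers summed to 40.1 and 74.8 CPM in WT and 109 and 82.1 CPM in clone 1, with 8 of 12 positive and a median of 0.36 that was 0.98 with WT mouse 1 alone and -0.17 with WT mouse 2 alone. Epithelial and tumour cell markers summed to 119.7 and 133 CPM in WT and 108 and 117 CPM in clone 1. Ezr, a gene of many cell types, gave most of it at 103 and 88.7 CPM in WT and 95.7 and 105 CPM in clone 1, with overlapping groups. The sum therefore says little about the other markers. Of that list 3 of 5 were positive. Among cytokines of macrophages 17 of 26 were positive, 8 with an unadjusted p under 0.05 as higher (4.25% of all genes), with a median of 0.40.

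Housekeeping and metabolic lists had medians near 0 with both WT libraries, and several leaned to negative values with WT mouse 1 alone. The medians were 0.01 for oxidative phosphorylation, 0.11 for lysosome and cathepsin genes, 0.05 for lipid handling, -0.07 for the cell cycle, 0.05 for ribosomal proteins and -0.10 for immediate early genes, the last of these 0.31 without WT mouse 2. With WT mouse 1 alone, negative members numbered 34 of 36 for ribosomal proteins, 32 of 38 for oxidative phosphorylation and 29 of 35 for the cell cycle, against 52.1% of all genes in that fit, with medians of -0.13, -0.09 and -0.20. With WT mouse 2 alone these medians were 0.24, 0.05 and 0.03. Long nuclear and structural RNAs, Rn45s among them, had a median of -0.40 that was -0.02 without WT mouse 2. Cholesterol synthesis genes were negative in 20 of 23 members (48.8% of all genes), 3 with an unadjusted p under 0.05 as lower (2.85%), with a median of -0.31 that was -0.58 with WT mouse 1 alone and 0.02 with WT mouse 2 alone. Srebf2, which drives the pathway, was at 86.9 and 174 CPM in WT and 60.8 and 63.7 CPM in clone 1 (-1.06 ± 0.35, 0.571). Glycolysis and hypoxia genes were negative in 28 of 36, with a median of -0.20 that was -0.10 with WT mouse 1 alone and -0.37 with WT mouse 2 alone. Car9, a carbonic anhydrase induced by low oxygen, was at 17.9 and 30.5 CPM in WT and 10.7 and 10.5 CPM in clone 1 (-1.19 ± 0.31, 0.412). Of the heat shock list, with a median of 0.03 that was -0.12 with WT mouse 1 alone and 0.13 with WT mouse 2 alone, the near-copies Hspa1b and Hspa1a were the members with a small p. Hspa1b was at 633 and 434 CPM in WT and 203 and 261 CPM in clone 1 and at 69.7 and 72.6 CPM in clone 2, with -1.20 ± 0.27 and an adjusted p of 0.329, and it passed without WT mouse 2 (0.0426). Hspa1a was at 662 and 384 CPM in WT and 247 and 270.1 CPM in clone 1 and at 74.9 and 72.9 CPM in clone 2. Clone 1 thus lay between WT and clone 2 for both.

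**Figure D5:**
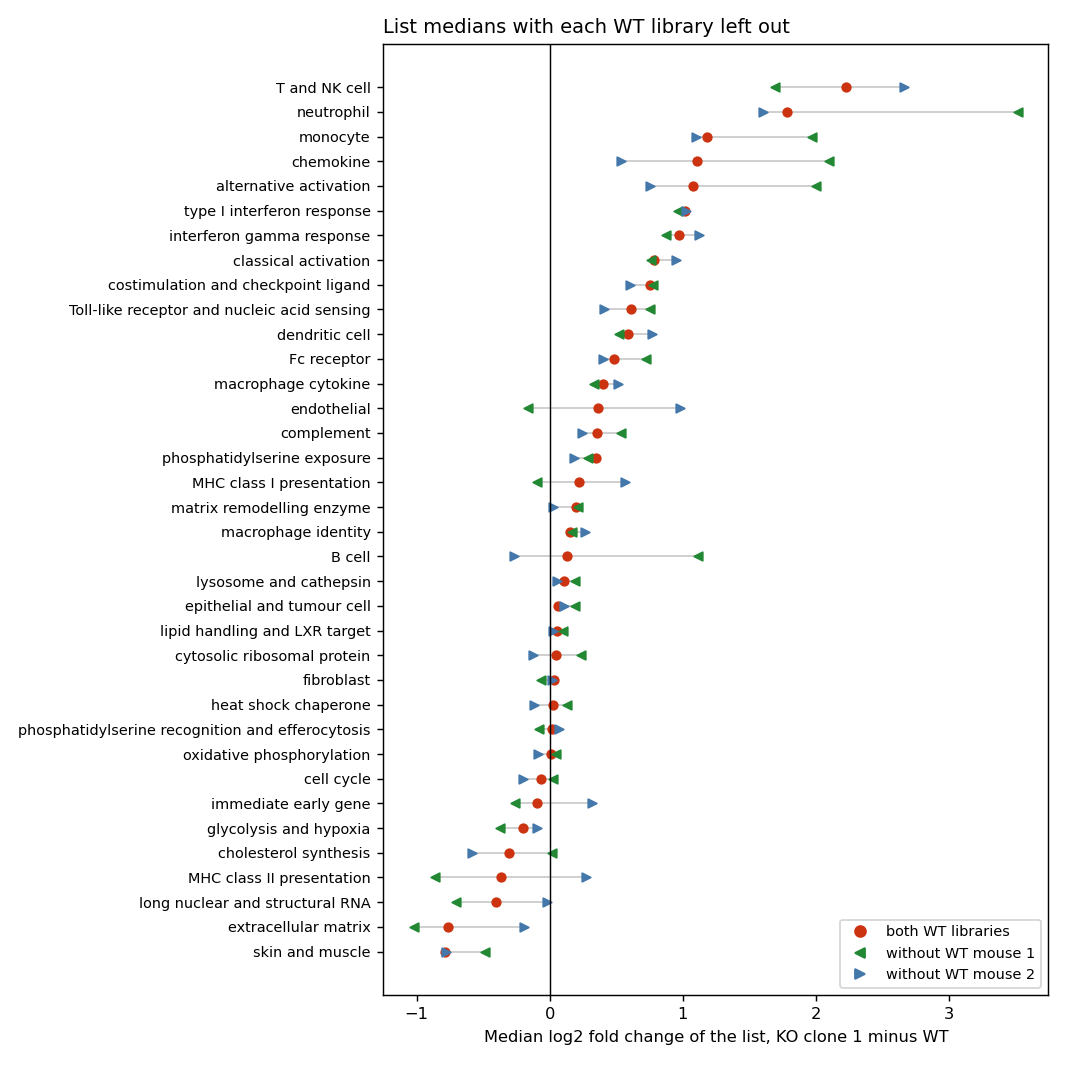
Median log2 fold change of clone 1 minus WT in each of 36 gene lists (horizontal axis) with both WT libraries (red circles), without WT mouse 1 (green left-pointing triangles) and without WT mouse 2 (blue right-pointing triangles). The type I interferon median stays between 0.96 and 1.02, while those of MHC class II, MHC class I, endothelial and B cell genes change sign with the WT library that is left out.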

How the data were processed

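Macrophages were isolated by flow cytometry from MC38 tumours and RNA was sequenced after rRNA depletion, per the labels' protocols. The values used are the deposited estimated counts, whole numbers for each gene symbol and unscaled. The submitters' processing notes name Salmon 0.7.2 and mm10, with no role or order, while the transcript set and any use of strand are not stated. The 6 libraries were grouped as the labels give them. The 235 symbols without a count were kept out of the tests. Totals were 20038047 to 40022755 per library, which sets the precision of low genes. In the 3 pairs of same-group libraries, counts differed beyond sampling noise, with 85.9 to 927 as the chi-square over its degrees of freedom.

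All 6 libraries were fitted in 3 groups with edgeR 4.0.16 (R 4.3.3), quasi-likelihood F test, filterByExpr (minimum count 10, minimum total 15), TMM scaling and Benjamini-Hochberg adjustment at 0.05, which left 3 residual degrees of freedom. CPM values use TMM-scaled totals. An SE is the log2 fold change divided by the square root of its F. DESeq2 1.42.0, limma-voom (limma 3.58.1), other scalings and filters, the 4 compared libraries alone, a replicate block and fits without each library were alternatives, and 1 of them, without Rn45s and Lars2, was added after seeing the data. The fit was tested on simulated data. Positions come from GENCODE M21, to which 20429 symbols (93.9%) matched, and promoters from RefSeq (GRCm38.p6).

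The members and gene lists were chosen with earlier results of these data known. The 36 lists hold 841 symbols, of which 827 matched directly, 5 through older symbols and 9 not. Genes are named by rule: every gene past the threshold, the 12 in each direction with the smallest p among those with a mean of at least 5 CPM whose groups do not overlap and that are no predicted models, the 6 in each direction with the largest fold change among those with an unadjusted p under 0.05, up to 5 members a list and direction, a fixed set of 23 genes, and 5 genes in each direction between the clones. The rule was applied to the matrix list also without the 5 genes of earlier results. The promoters of Ly6c2, Ly6c1 and Tgtp1 were chosen after values were seen. Protein sequences are not used here.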

Additional observations from a re-analysis of the deposited data

Results flagged for a closer look

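These 9 genes stood on opposite sides of WT in the clones: both clone 1 libraries lay on one side of both WT libraries and both clone 2 libraries on the other. No gene passed the test between the clones by edgeR, and each of the 9 adjusted p was above the threshold. Of the genes lower in clone 1 and higher in clone 2 than in WT, the log2 difference of clone 2 minus clone 1 was 4.961 for Aspn, 4.076 for Krt14, 2.168 for Dlc1, 1.939 for Cdon and 1.200 for Fbn1. Of those higher in clone 1 and lower in clone 2, it was -3.831 for Rbfox1, -2.679 for Vipr2, -2.034 for Postn and -2.002 for Ncam1. Their values in each library are given with the results or below.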

How the results depend on the processing

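Scaling with RLE size factors, library totals as deposited, limma-voom, and leaving out Rn45s, alone or with Lars2, each kept 1 gene called between clone 1 and WT and 0 between the clones. DESeq2 called 271 and 117, and no filter beyond 1 count called 123 and 53. The fit to the 4 libraries of each comparison called 0 and 79. Requiring 5 CPM or more in 2 or more libraries gave 0 in both. Leave-one-out fits called 0 to 5535 between clone 1 and WT and 0 to 87 between the clones. The cause of these differences was not tested.

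With the replicate number as a block, 0 genes were called in both comparisons and the adjusted p of Ly6c2 was 0.126. Deviations of same-numbered libraries correlated at -0.135 between WT and clone 1, 0.05 between WT and clone 2 and 0.197 between the clones. Each of these comparisons gives a single value, so whether the numbers pair the mice is not settled.

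Of 108 named genes, 94 kept the sign of their log2 fold change in every alternative. With library totals as deposited it became positive for Axl (0.0030), Bst2 (0.0854), Clec9a (0.1698), Ifnb1 (0.1437), Isg15 (0.3241) and Ly6c1 (0.0440). With limma-voom it was 0.0829 for Clec9a, 0.0230 for Ifnb1 and 0.3265 for Isg15, and with the block 0.1276 for Isg15. Over the leave-one-out fits it ran from -0.6244 to 0.2255 for Axl, -0.9156 to 0.9119 for Bst2, -0.3651 to 0.9816 for Cd274, -1.8724 to 0.6002 for Cd74, -0.6242 to 0.5369 for Clec9a, -0.0660 to 0.1905 for Ezr and -0.9530 to 0.4561 for Foxp3. It ran from -0.9469 to 0.6536 for H2-Ab1, -0.3616 to 0.2369 for Ifnb1, -0.7132 to 1.2259 for Isg15, -0.4176 to 0.2264 for Ly6c1, -0.0343 to 0.4905 for Mertk, -2.1507 to 0.4446 for Oaz1-ps and -3.7249 to 0.9909 for Rn45s. The medians of 19 of the 36 lists kept their sign in every alternative.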

Other observations

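Some genes outside the lists separated the clones. Dlc1 was at 7.29 and 8.05 CPM in WT and 3.34 and 4.77 CPM in clone 1 and at 17.4 and 19.0 CPM in clone 2, so clone 1 was the lowest group and clone 2 the highest. Cdon, a co-receptor of Hedgehog signalling, was at 5.18 and 5.09 CPM in WT and 2.62 and 2.58 CPM in clone 1 and at 9.72 and 10.2 CPM in clone 2, with the same order. The contrasts of clone 2 minus clone 1 were 2.17 ± 0.28 for Dlc1 and 1.94 ± 0.26 for Cdon, each with an adjusted p of 0.181 by edgeR. Igf2, an insulin-like growth factor, was at 3.76 and 18.9 CPM in WT and 0.654 and 1.80 CPM in clone 1 and at 8.62 and 9.31 CPM in clone 2; clone 1 was below both other groups, and the difference to WT of -3.19 ± 0.83 had an adjusted p of 0.422.

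A pair of genes had values that single libraries set. Snord15a, a small nucleolar RNA, was at 1.25 and 37.1 CPM in WT and 0.994 and 0.990 CPM in clone 1, so WT mouse 2 alone was high. Oaz1-ps, a pseudogene whose reads may be shared with its parent gene, was at 34.4 and 26.0 CPM in WT and 41.1 and 6.77 CPM in clone 1, with overlapping groups, and at 0 and 0.0240 CPM in clone 2, near 0.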
